A study of Mus musculus with 15 samples.

Results

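The 6 genes described here encode proteins of the dystrophin-glycoprotein complex of muscle: Dmd, Dag1, Sgca, Sgcb, Sgce and Utrn. All probe sets that the platform annotation gives to one of these symbols alone were taken, on all arrays of the series. That gave 9 probe sets of 12488 on the array, and each of the 6 genes had at least 1. Gene expression was measured on 15 one-colour oligonucleotide arrays with total RNA of mouse heart left ventricle from a study of hypertrophy of the pressure-overloaded heart. The groups were 3 female hearts and 3 male hearts with the operation that the labels call TAC, against 3 female and 6 male hearts labelled as sham controls. The sources used here give no strain, age, time after the operation or grading of the overload. No label says that each array had an animal of its own, so the p-values reflect the spread between these samples and no more.

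In striated muscle, dystrophin binds filamentous actin with its amino-terminal part and beta-dystroglycan in the sarcolemma with its carboxy-terminal part. Alpha-dystroglycan, cut from the same precursor, holds laminin, agrin and perlecan outside the cell through its sugar chains, and the sarcoglycans form a subcomplex that stabilises this bridge. In the heart the complex carries lateral force from the costameres to the basement membrane, and its loss in people or mice leads to fragile membranes and cardiomyopathy. The known roles differ between the genes. Dmd encodes dystrophin and Utrn its autosomal homologue utrophin, which is found more widely and can take the place of dystrophin in mice that lack it. Dag1 encodes both dystroglycans. Sgca encodes alpha-sarcoglycan, which is largely confined to striated muscle, Sgce its widely expressed homologue epsilon-sarcoglycan, and Sgcb the beta-sarcoglycan of the core of the subcomplex.

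The Dmd gene spans 2390387 bases of chromosome X (82814664 to 85205050, GRCm38.p6), and besides full-length dystrophin it gives shorter products from promoters inside the gene. The RefSeq promoter table listed 7 starts for 5 of the 6 genes. For Dmd it listed a pair of starts, both inside the span of the gene and neither at its first base. They lie 2099 kilobases apart, and the annotation of the single Dmd probe set does not say which transcripts it binds. The 250 bases before each Dmd start are shown for that reason, beside those of Sgca, the gene of the group most restricted to striated muscle. All are from RefSeq, build GRCm38.p6, and capitals mark the E-box CANNTG, the motif bound by basic helix-loop-helix factors such as the myogenic ones.
Dmd, upstream start (chrX:82948620-82948869, plus strand): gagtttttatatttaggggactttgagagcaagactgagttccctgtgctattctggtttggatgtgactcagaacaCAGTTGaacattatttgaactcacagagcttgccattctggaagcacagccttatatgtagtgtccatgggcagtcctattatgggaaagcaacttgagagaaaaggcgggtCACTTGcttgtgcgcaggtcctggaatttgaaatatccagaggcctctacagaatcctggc
Dmd, downstream start (chrX:85048045-85048294, plus strand): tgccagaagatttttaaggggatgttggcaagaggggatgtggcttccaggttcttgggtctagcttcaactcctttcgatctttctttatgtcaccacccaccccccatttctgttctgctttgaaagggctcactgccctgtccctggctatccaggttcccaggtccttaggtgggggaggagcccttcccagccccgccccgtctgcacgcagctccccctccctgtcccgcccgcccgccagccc
Sgca (chr11:94976328-94976577, minus strand): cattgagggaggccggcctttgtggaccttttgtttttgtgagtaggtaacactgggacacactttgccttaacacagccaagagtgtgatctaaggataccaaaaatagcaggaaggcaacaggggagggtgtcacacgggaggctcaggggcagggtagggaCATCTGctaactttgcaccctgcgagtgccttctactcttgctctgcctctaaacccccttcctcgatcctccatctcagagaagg
The letters before the upstream Dmd start hold 2 E-boxes, at -173 and -61 from the start, as well as 1 MEF2 site at -244 and 1 CArG box at -98, both searched by their usual consensus. No E-box overlaps either of them. Those before the downstream start hold none of the 3 motifs but 3 GC boxes (GGGCGG or its reverse complement), the last pair of which overlap by 2 bases, and are richer in G and C, at 60% against 45.2%. Sgca has 1 E-box, at -86. Among the windows not shown, that of the widely expressed Utrn held 7 E-boxes. It lies inside the span of the gene (chr10:12861736-12861985, minus strand, where the gene runs from 12382187 to 12869888). Each Dag1 window held 1 E-box, which is the same one, as these windows overlap. That of Sgcb held 0. Counted on both strands in windows of the same length, an E-box occurred in 66.2% of 32851 promoters, a GC box in 32.7%, a MEF2 site in 2.92% and a CArG box in 1.47%. These matches describe the letters in the windows.

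Of 5 stress genes of the hypertrophied heart, read as a check of the arrays, limma called 3 as higher with TAC: Nppa, the gene of atrial natriuretic peptide, was 7.11-fold, Acta1, the skeletal muscle alpha-actin, 4.32-fold and Ankrd1, a titin-binding ankyrin repeat protein, 2.14-fold higher, averaged over the sexes (adjusted p = 1.29e-06, 3.55e-07 and 4.48e-05 in limma). Nppb, the gene of the B-type natriuretic peptide, had a fold of 2.26 that did not pass (limma adjusted p = 0.125), and Myh7, the beta myosin heavy chain, one of 1.02 (limma adjusted p = 0.948). All 11 cardiomyocyte marker genes on the array had a mean above the floor of 20 intensity units that was set here, as the tissue label says. Array medians lay between 21.3 and 26.7 units, with the lowest on female TAC 1, and on each array 42.4% to 48.4% of values were under the floor. The number of arrays limits the precision. Because each array measured whole ventricle, fewer cells of a type and less RNA per cell cannot be told apart in any value below.

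Dag1, Sgca, Sgcb, Sgce and Utrn did not pass the test for a TAC effect, and Dmd was too dim for the main test. Of the 9 probe sets, 7 passed the filter on dim values, which kept the brighter 60% by mean log2 intensity: both of Dag1, both of Sgca, and 1 each of Sgcb, Sgce and Utrn. In the effect of TAC averaged over the sexes, limma called 0 of these 7 at an adjusted p under 0.05, where 0.322% of all 7453 tested probe sets were called, 0.268% as higher and 0.0537% as lower with TAC. Without adjustment, 0 of 7 were under 0.05 as well, against 7.51% of all probe sets, and the exact permutation, which exchanged TAC and sham labels among hearts of one sex, gave 0 as well. Of the 7, 2 had a positive and 5 a negative log2 difference (TAC minus sham), with a median of -0.06, and with the arrays scaled to a common median 2 of the negative ones, the brighter Dag1 and the first Sgca probe set, turned to 0.01 and 0.00, while that scaling moved the median of all tested probe sets to 0.02. Over all tested probe sets in the main setting 58.2% were negative and the median was -0.03. The 95% intervals of the 7 fold changes reached no higher than 1.42 and no lower than 0.667, so for these probe sets larger average changes lay outside the intervals.

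**Figure D1:**
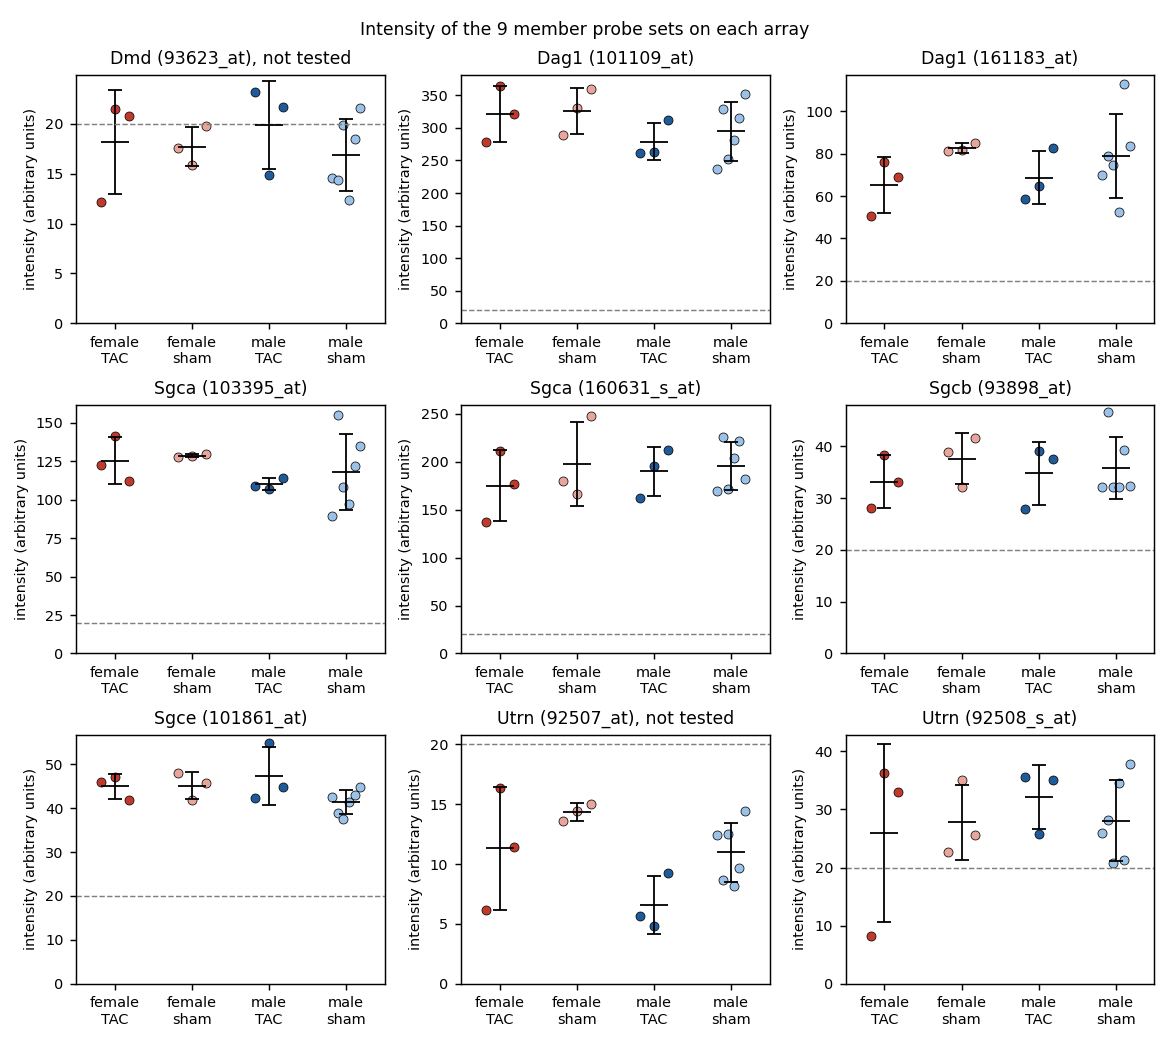
Intensity (arbitrary units, linear axis from 0) of the 9 probe sets on each of the 15 arrays, by group. Points are arrays, bars are the mean ± SD (n = 3 for the TAC and female sham groups, n = 6 for male sham), and the dashed line is the floor of 20: Dmd lies around it, the first Utrn probe set below it on all 15 arrays, and the TAC and sham points of a sex overlap in every panel except for females in the second Dag1 panel.

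Dystrophin itself was dim. Its probe set read 12.2, 21.5 and 20.8 units in female TAC hearts, against 17.6, 15.8 and 19.8 in female sham hearts. In male TAC hearts it read 23.2, 14.9 and 21.7, against a lowest, median and highest value of 12.4, 16.5 and 21.6 in male sham hearts. The groups overlapped in both sexes, and 10 of the 15 arrays lay below the floor. With a mean floored log2 value of 4.36 Dmd fell just outside the filter, whose lowest kept value was 4.40, and it was not tested in the main setting. Where the floor was lowered to the 10th percentile of the values above 0, Dmd was tested and had a log2 difference of 0.12 ± 0.17 (SE, TAC minus sham, averaged over the sexes, limma adjusted p = 0.909). Without the filter it had 0.07 ± 0.03 (SE, unadjusted p = 0.0390, adjusted p = 0.951), a value compressed by the floor on those 10 arrays.

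Utrophin had 2 probe sets, of which only 1 could be measured. The one tested read 8.27, 36.2 and 33.1 units in female TAC hearts, against 22.7, 35.0 and 25.7 in female sham hearts. Its male TAC values were 35.5, 25.7 and 35.0, against 20.8, 27.0 and 37.9 as the lowest, median and highest of the male sham hearts. The groups overlapped in both sexes, and female TAC 1 stood low, below the floor. The averaged log2 difference was 0.15 ± 0.17 (SE, limma adjusted p = 0.892), a fold of 1.11 with a 95% interval from 0.859 to 1.42. With the lower floor, which lets female TAC 1 count at its own value, the averaged difference turned to -0.07 and that in females to -0.35, and without female TAC 1 the female difference was 0.34, against 0.08 with all arrays. That array also had the lowest median of the 15. The part of the array level in this value was not tested.

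The other Utrn probe set lay below the floor on all 15 arrays, so no fold is given. It read 6.12, 16.4 and 11.4 units in female TAC hearts and 13.6, 14.4 and 15.03 in female sham hearts. In male TAC hearts it read 5.63, 4.81 and 9.29, while the male sham hearts had a lowest, median and highest value of 8.15, 11.0 and 14.4. The male TAC values lay at the low end, with the highest of them inside the sham range.

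Dystroglycan did not pass by either of its probe sets, and the pair gave TAC differences of unequal size. The brighter one read 278, 365 and 321 units in female TAC hearts, against 289, 330 and 360 in female sham hearts. Male TAC hearts had 262, 263 and 312, against 237, 299 and 353 as lowest, median and highest in male sham hearts. These groups overlapped almost fully, and the averaged log2 difference was -0.05 ± 0.11 (SE, adjusted p = 0.946 by limma), with the fold between 0.819 and 1.14 at 95%.

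The dimmer Dag1 probe set read 50.7, 76.1 and 68.8 units in female TAC hearts, against 81.3, 81.6 and 85.2 in female sham hearts. All 3 female TAC hearts lay below all 3 female sham hearts. That was so for 1 of the 7 probe sets of the complex and for 5.49% of all tested probe sets, while 0 of the 7 had all female TAC hearts above all female sham hearts (3.02% of all), and the exact permutation p of 0.100 is the smallest that 3 against 3 can give. In males the TAC hearts had 58.7, 64.8 and 82.7, within the sham range, whose lowest, median and highest values were 52.4, 76.9 and 113. The averaged log2 difference was -0.27 ± 0.15 (SE, limma unadjusted p = 0.0893, adjusted p = 0.740), a fold of 0.830 with an interval from 0.667 to 1.03. It was the lowest unadjusted p among the 7, and it did not pass. The SD of this probe set was 13.1 units in female TAC hearts and 2.15 in female sham hearts.

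Both Dag1 probe sets tended to be high or low on the same arrays. After the group means were removed, their log2 values were correlated over 15 arrays, with 0.596 as Pearson's r and 0.754 as Spearman's rho (permutation p = 0.0167 and 0.00192, adjusted over the 2 gene pairs compared 0.0334 and 0.00384). Without the 2 arrays farthest from the median, male sham 4 and male sham 9, r was 0.622. With the arrays scaled to a common median it was 0.355, and the arrays' common level is one thing the values share. The permutations shuffled the deviations over all 15 arrays. They allowed neither for the removed group means nor for that level. For the pair of Sgca probe sets r was 0.403 and rho 0.486 (permutation p = 0.136 and 0.0677, adjusted the same), and r was 0.191 without male sham 5 and male sham 4.

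Alpha-sarcoglycan passed the test by neither of its probe sets. The first read 123, 142 and 112 units in female TAC hearts, against 128, 128 and 129 in female sham hearts. Male TAC hearts had 109, 107 and 114, against 89.0, 115 and 155 as lowest, median and highest in male sham hearts. The TAC values lay inside the sham range in males and on both sides of it in females. The averaged log2 difference was -0.06 ± 0.12 (SE, limma adjusted p = 0.945). The second read 137, 211 and 177 units in female TAC hearts, against 180, 166 and 248 in female sham hearts, and 162, 195 and 213 in male TAC hearts, against 169, 193 and 226 in male sham hearts. Its groups overlapped in both sexes, with an averaged difference of -0.11 ± 0.13 (SE, limma adjusted p = 0.891). The folds of the pair were 0.962 (95% interval 0.807 to 1.15) and 0.927 (0.768 to 1.12).

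Beta-sarcoglycan read 28.0, 38.4 and 33.2 units in female TAC hearts, against 38.9, 32.1 and 41.7 in female sham hearts. Male TAC hearts had 27.8, 39.1 and 37.5, against 32.2, 32.3 and 46.7 as lowest, median and highest in male sham hearts, where 4 of 6 arrays lay close together near 32.2. The groups overlapped in both sexes. Sgcb had an averaged log2 difference of -0.11 ± 0.12 (SE, limma adjusted p = 0.884) and a fold of 0.926, with an interval from 0.771 to 1.11.

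Epsilon-sarcoglycan was the steadiest of the tested probe sets. It read 46.0, 47.1 and 41.8 units in female TAC hearts, against 48.0, 41.9 and 45.6 in female sham hearts. Male TAC hearts had 42.3, 54.9 and 44.9, against 37.6, 41.9 and 44.8 as lowest, median and highest in male sham hearts. Male TAC 5 stood above all sham hearts and male TAC 6 at the upper end of the male ones, while male TAC 4 lay inside their range. The averaged log2 difference was 0.09 ± 0.09 (SE, limma adjusted p = 0.875), with -0.01 ± 0.14 in females and 0.19 ± 0.12 in males (adjusted p = 1.00 and 0.935). The fold lay between 0.933 and 1.22 at 95%, the narrowest interval of the 7. Without male TAC 5 the averaged difference was 0.04. The SD of Sgce within groups was 0.12 on the log2 scale, and 3.52% of all tested probe sets had an SD as small, while that of the tested Utrn probe set was 0.36, which 84.5% of probe sets did not exceed.

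**Figure D2:**
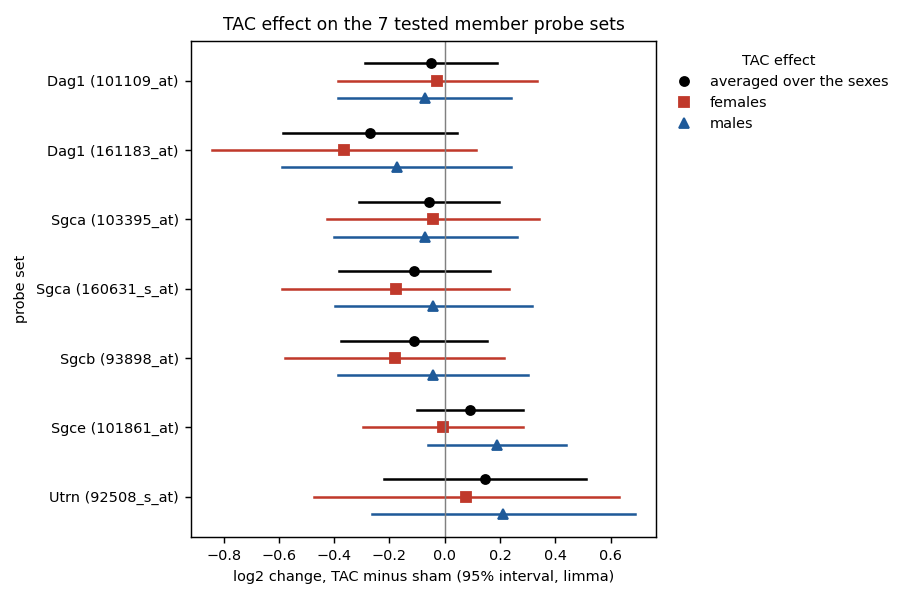
Log2 change (TAC minus sham, horizontal axis) of the 7 tested probe sets, averaged over the sexes (circles), in females (squares) and in males (triangles), with limma's 95% intervals as lines. All 21 intervals include 0.

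Taken in each sex, the probe sets of the complex gave the same count. In females limma called 0 of 7, against 0.0805% of all tested probe sets (0.0671% higher and 0.0134% lower with TAC), with 1 positive and 6 negative log2 differences and a median of -0.04, as it was over all tested probe sets. In males it called 0 of 7, against 0.134%, with 2 positive and 5 negative and a median of -0.04, where all probe sets had -0.01. In males 0 of the 7 had all TAC hearts above or all below the sham hearts, against 1.62% and 1.34% of all probe sets. In neither sex was any of the 7 below an unadjusted limma p of 0.05 or an exact permutation p of 0.05, where limma had 4.59% of all tested probe sets below 0.05 in females and 6.2% in males, so a count of 0 is near the background. The female comparison cannot go below an exact p of 0.100. The lowest fold inside any of these intervals was 0.559, for the dimmer Dag1 probe set in females, and the highest was 1.61, for Utrn in males. The widest single interval was that of Utrn in females, from 0.721 to 1.55.

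The interaction asked whether TAC acted differently in the sexes, and limma called 0 of 7 there, with 0% of all tested probe sets called. No probe set of the complex had an unadjusted p under 0.05, where 2.56% of all did. Sgce ranked first among the 7 by p, with -0.19 ± 0.18 as the TAC effect in females minus that in males (SE, limma adjusted p = 1.00). Its interval of -0.58 to 0.19 spans differences in either direction.

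Dmd lies on chromosome X, while Dag1 lies on chromosome 9 (108204861 to 108263977), Sgca on 11 (94962777 to 94976327), Sgcb on 5 (73632749 to 73647737), Sgce on 6 (4674350 to 4747204) and Utrn on 10 (12382187 to 12869888). Female and male hearts were compared over both operations. Limma called 0 of the 7 probe sets, against 0.0134% of all tested, and none had an unadjusted p or an exact permutation p under 0.05. Of all tested probe sets 6.68% had such an unadjusted p, so that count too is near the background. The brighter Dag1 probe set had a log2 difference of 0.18 ± 0.11 (SE, female minus male, limma adjusted p = 0.786), from means of 321 ± 43.4 and 326 ± 35.6 units in female TAC and female sham hearts (SD, n = 3 each) and of 278 ± 28.6 and 295 ± 45.2 in male TAC and male sham hearts (SD, n = 3 and 6). The first Sgca probe set had 0.17 ± 0.12 (SE, adjusted p = 0.809 in limma). The other 5 lay between -0.07 and 0.03. The mean of Dmd was 18.2 ± 5.19 and 17.7 ± 1.98 units in female TAC and female sham hearts (SD, n = 3 each), and 19.9 ± 4.42 and 16.9 ± 3.62 in male TAC and male sham hearts (SD, n = 3 and 6). With the lower floor Dmd had a female minus male difference of -0.03 ± 0.17 (SE, limma adjusted p = 0.975).

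**Figure D3:**
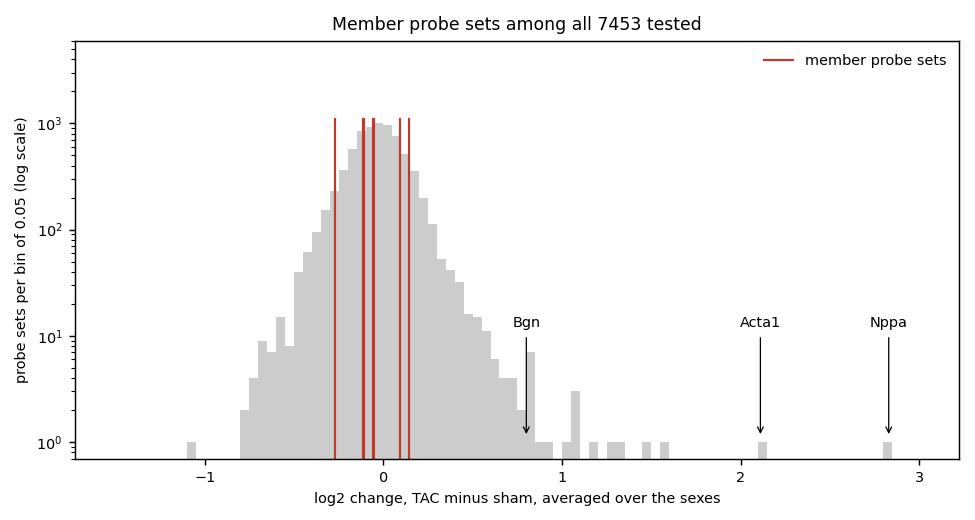
Number of probe sets (log axis) by log2 change of TAC minus sham averaged over the sexes, in bins of 0.05, for all 7453 tested probe sets (grey). Red lines mark the 7 of the complex, between -0.27 and 0.15, and arrows mark Bgn at 0.80, Acta1 at 2.11 and Nppa at 2.83.

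Within the groups, the probe sets of dystroglycan, alpha- and beta-sarcoglycan had positive correlations with each other from array to array. The 10 pairs among the 5 probe sets of Dag1, Sgca and Sgcb had correlations (Pearson's r, 15 arrays, group means removed) of 0.403 to 0.842, with a median of 0.553, where the median over all pairs of tested probe sets was 0.0652. The highest was that of Sgcb with the second Sgca probe set, and 21 tested probe sets were closer to that Sgca probe set than Sgcb was. For the other 9 pairs between 248 and 1820 tested probe sets were closer to the one than the other was. Scaling the arrays to a common median lowered the 10 values to 0.220 to 0.765, with a median of 0.341, where the median over all pairs of tested probe sets was 0.0117 on the same scaling. Sgce had between -0.22 and 0.29 with the other 6, and Utrn between -0.08 and 0.55 with the 5. The array level moved the same way: on female TAC 1 25.5% of all tested probe sets lay above their group mean, and 1 of the 7 of the complex, while on female TAC 2 64% did, and all 7 of the complex.

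**Figure D4:**
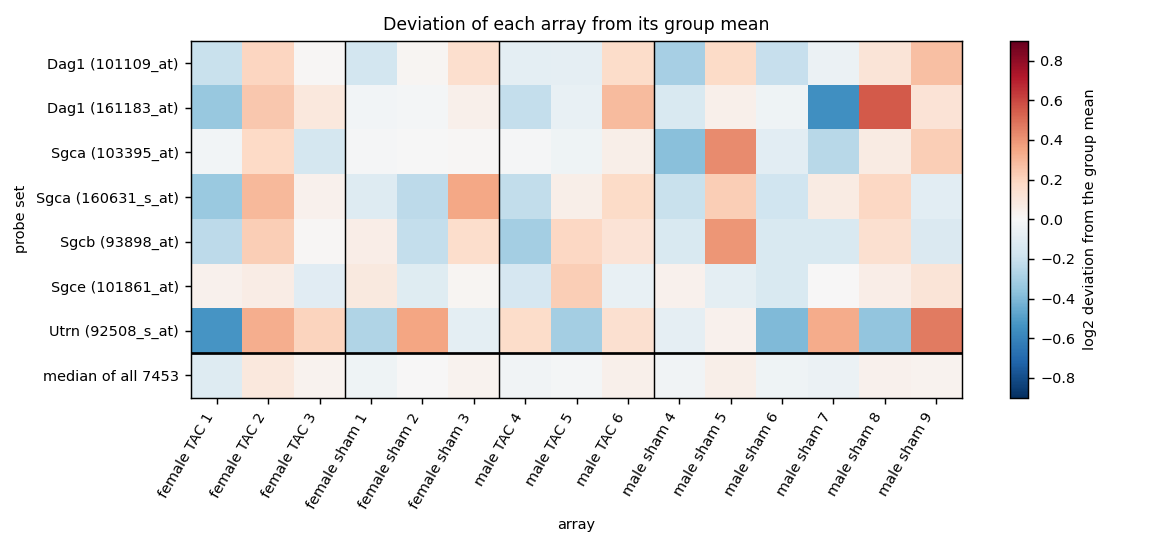
Log2 deviation of each array (columns, grouped by sex and operation) from its group mean for the 7 tested probe sets (rows), with the median over all 7453 below the thick line. Colour runs from blue (below the group mean) to red (above); female TAC 1 is low and female TAC 2 high for most rows and for the median.

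For the 5 genes of the complex that were tested, the genes that followed them most closely across arrays were listed, and Dmd, which was not tested, has none. By Pearson r of log2 values over the 15 arrays with group means removed, the 3 genes nearest to the brighter Dag1 probe set were Mad2l1bp (0.929), Stmn1 (0.925) and Fbxw5 (0.915). For the second Sgca probe set they were Polr1a (0.925), Cttn (0.900) and Ppif (0.888), and for Sgcb they were Gorasp2 (0.898), Casp2 (0.885) and Eif3d (0.881). The nearest to Sgce were Ncdn (0.883), Six5 (0.875) and Ddx24 (0.806), and to Utrn Rps6kb2 (0.917), Tns2 (0.907) and Arl2bp (0.905). These are the highest among the tested probe sets with 1 symbol of another gene, so values this high describe a ranking, and the points share the common level of the arrays.

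The other genes around the complex were read from lists. Of the remaining sarcoglycans and sarcospan, 2 of 4 genes were on the array and tested, and neither passed. Sgcd, the delta-sarcoglycan that pairs with the beta subunit, had a log2 difference of 0.16 ± 0.16 (SE, limma adjusted p = 0.876) and Sspn, a small membrane protein of the complex, -0.19 ± 0.17 (SE, adjusted p = 0.856 in limma). Of the syntrophins, dystrobrevins and their partners, 4 of the 8 genes on the array were tested and 0 passed, with differences from -0.13 to -0.01. Aqp4, a water channel anchored through syntrophin in other tissues, had -0.13 ± 0.11 and Dtna, alpha-dystrobrevin, -0.07 ± 0.12 (SE), both averaged over the sexes. By sex, Aqp4 had 0.11 ± 0.17 in females and -0.37 ± 0.15 in males (SE, limma adjusted p = 0.682 in males), with 1 male TAC value below the floor. Of the enzymes that build the sugar chains of dystroglycan, 6 of 15 were on the array and 4 were tested. None passed, and Dpm1 and Dpm2, subunits of the dolichol-phosphate-mannose synthase, had 0.24 ± 0.12 and 0.06 ± 0.10 (SE). A second Dpm2 probe set had -0.26 ± 0.13 (SE).

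The matrix ligands held the one called gene. Of 9 tested genes, 1 passed upwards and 0 downwards, with 4 positive, 5 negative and a median of -0.02. Bgn, the proteoglycan biglycan, which binds alpha-dystroglycan and sarcoglycans, averaged 540 ± 130 units in female TAC hearts and 294 ± 10.7 in female sham hearts (SD, n = 3 each), and 394 ± 79.6 in male TAC hearts and 234 ± 34.8 in male sham hearts (SD, n = 3 and 6). Averaged over the sexes, it rose by 0.80 ± 0.13 on the log2 scale (SE, limma without a block, adjusted p = 0.00619). Its second probe set had 0.31 ± 0.14 there (SE, adjusted p = 0.611 in limma). By sex, the first of these had 0.85 ± 0.19 in females and 0.75 ± 0.17 in males (SE). Neither passed (limma adjusted p = 0.23 and 0.136). Lama5, the alpha-5 chain of laminin, averaged 73.0 ± 4.11 units in female TAC hearts and 89.3 ± 3.51 in female sham hearts (SD, n = 3 each), and 70.7 ± 8.02 in male TAC hearts and 88.5 ± 7.38 in male sham hearts (SD, n = 3 and 6). Its TAC values lay below all sham values in both sexes, as in 5.49% of all tested probe sets in females and 1.34% in males. Lama5 was named for its small p in this list, so this adds no separate support. Lama5 had a difference of -0.31 ± 0.09 (SE, limma unadjusted p = 0.00318) that did not pass over all probe sets (adjusted p = 0.261), and a second probe set had -0.29 ± 0.11 (SE). Lama2, the alpha-2 chain of the laminin of muscle basement membrane, had -0.03 ± 0.12 (SE).

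Of 17 genes of other linkers at the sarcolemma and costamere, 13 were on the array and 10 were tested. None passed, with 8 positive, 2 negative and a median of 0.05. Itga7, the laminin-binding integrin chain of muscle, had -0.24 ± 0.12 (SE, limma adjusted p = 0.708), with -0.02 ± 0.10 for another of its probe sets. By sex, the first of these had -0.05 ± 0.18 in females and -0.425 ± 0.160 in males (SE, limma adjusted p = 0.651 in males). Sptan1, a spectrin, had 0.16 ± 0.13 averaged over the sexes (SE, adjusted p = 0.838 in limma).

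**Figure D5:**
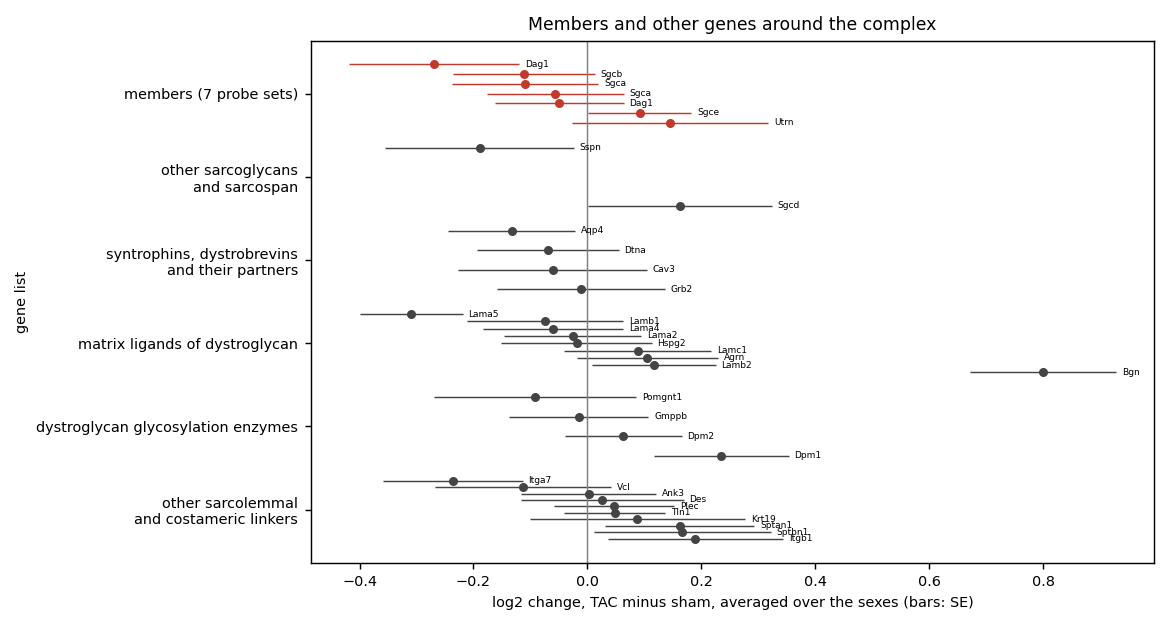
Log2 change of TAC minus sham averaged over the sexes, with bars for the SE, for the 7 tested probe sets of the complex (red) and the brightest tested probe set of each gene in 5 lists (dark grey). Bgn at 0.80 stands apart, and Lama5 is the lowest at -0.31.

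Several of these genes are also made by cells other than cardiomyocytes, so marker lists were read beside them. The 9 fibroblast markers summed to between 1710 and 2616 units in female TAC hearts and between 1669 and 1811 in female sham hearts, and to between 1879 and 2220 in male TAC hearts and between 1345 and 1823 in male sham hearts. Of the 8 tested, 6 had a positive log2 difference, against 41.8% of all tested probe sets. None passed, and 4 had an unadjusted limma p under 0.05, all of them higher with TAC, against 7.51% of all in either direction. The median was 0.25, with Tcf21 on average below the floor. The 8 endothelial markers summed to between 549 and 655 units in female TAC hearts and between 612 and 637 in female sham hearts, and to between 453 and 697 in male TAC hearts and between 433 and 624 in male sham hearts. Their part in the values of Bgn, Lama5, Utrn and Sgce was not tested. Smooth muscle and pericyte markers had a median difference of -0.18, with Myh11, Cnn1 and Pdgfrb below the floor on average, and 0 of the 5 tested had an unadjusted limma p under 0.05. Cardiomyocyte markers had a median of -0.05, and 3 of the 11 tested had such a p, all of them lower with TAC. In both lists 0 genes passed.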

How the data were processed

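The authors deposited probe-set intensity values on a linear, arbitrary scale for 15 arrays. The sources used here name no software, background correction or scaling. Array medians lay between 21.3 and 26.7 units, and the array level was kept as deposited. Members and gene lists were chosen with earlier results of these data known.

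After 66 control probe sets were left out, values were floored at 20 (their 30th percentile was 11.9) and put on the log2 scale. The brighter 60% by mean value, 7453 probe sets, were tested. Limma 3.58.1 in R 4.3.3 fitted the mean of each of the 4 groups to all arrays, with Benjamini-Hochberg adjustment over all tested probe sets and a threshold of 0.05. The fit was tested on simulated data. Exact permutations exchanged the operation labels within each sex (1680 arrangements) or the sex labels within each operation, two-sided. Correlations used 100000 random permutations.

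Symbols came from the platform annotation, updated by Entrez number through a RefSeq table of GRCm38.p6. Named were all members, any called gene and the 2 of smallest p in each list (brightest probe set, the stress genes included), and the 3 genes most like each tested member. Values of Lama2, Nppb and Myh7 were given outside this rule. The labels give no batch. No 2 arrays were identical.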

Additional observations from a re-analysis of the deposited data

How the results depend on the processing

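The 7 tested probe sets of Dag1, Sgca, Sgcb, Sgce and Utrn had no call in any of 317 results under other settings or of 525 results with 1 array left out, where the smallest adjusted p was 0.333. The sign turned in 21 and 42 of these results. None of these turns was in a TAC effect of the dimmer Dag1 probe set, be it averaged over the sexes, in females or in males. Its averaged difference of -0.27 lay between -0.34 and -0.18 with 1 array left out. Lowering the floor turned Utrn in the TAC effect averaged over the sexes, and scaling to a common median turned the brighter Dag1 and the first Sgca probe set, to 0.01 and 0.00, while it moved the median of all tested probe sets from -0.03 to 0.02. The replicate block also turned the brighter Dag1 probe set. The TAC effect averaged over the sexes gave 24 calls over all probe sets, and 44 after quantile normalization or with arrays scaled to a common median, 12 with the lower floor, 13 with no filter, 68 with array weights and 12 to 29 without 1 array, with the fewest without male TAC 5. The TAC effect in females gave 6, and 10 with trended and robust eBayes, 36 with array weights, 2 with only the groups compared and 2 to 8 without 1 array. The TAC effect in males gave 10, and 18 with arrays scaled to a common median, 3 with the lower floor, 6 with the offset, 4 with no filter, 16 with trended and robust eBayes and 3 to 12 without 1 array. The sex difference averaged over the operations gave 1, and 6 after quantile normalization or scaling to a common median, 3 with the offset, the stricter filter or trended and robust eBayes, 0 with no filter, 5 with array weights and 0 to 4 without 1 array. The interaction of TAC and sex gave 0 throughout. The causes of these shifts were not tested.

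The titles of sham and TAC hearts share the numbers 1 to 6. The deviations of same-numbered hearts had correlations of 0.244, 0.270 and 0.117 in females and of 0.0641, -0.0828 and 0.0136 in males, so the numbers were not taken as pairs. With the number as a replicate block, the calls were 8 for the TAC effect averaged over the sexes, 3 for the TAC effect in females and 3 for the TAC effect in males. Bgn lost its call there (adjusted p = 0.0591). Sex could not be fitted with that block, and the interaction was not permuted. For the 310 results of the other named genes that was the only call that changed. Dmd and one Utrn probe set are limited by signal near or below the floor.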
